A study of Mus musculus with 6 samples.

Results

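The cathepsins are the proteases of the lysosome and of related endosomal compartments, and 9 of their genes (Ctsa, Ctsb, Ctsc, Ctsd, Ctsh, Ctsk, Ctsl, Ctss and Ctsz) were followed here among the 55254 genes of the count table. They were chosen by gene symbol, and no measured value entered the rule, although earlier results of these data were known when the list was made. The 9 genes had 49 annotated transcripts, of which 31 held at least 1 count, and each gene stands for that transcript of its own whose mean count was highest. A count is a sequencing read that the authors assigned to the 3′ untranslated region (3′ UTR) of a transcript. The cells were bone marrow-derived macrophages (BMDMs) of C57BL/6J mice that were 6 to 8 weeks old according to the methods. They had differentiated for 10 days in medium conditioned by L929 cells and were activated with 100 ng/ml of LPS, a bacterial endotoxin, for 4 hrs, so that no resting cells were measured. Control BMDMs had the genotype hnRNPD fl/fl, with loxP sites around exons 3 and 4 of the gene for the RNA-binding protein AUF1. M-Δx3,4 BMDMs had the genotype LysCre+ hnRNPD fl/fl, in which Cre recombinase driven by the lysozyme M promoter removes these exons in myeloid cells. The controls carried the same floxed alleles without Cre, so Cre and the deletion cannot be told apart. Each group had 3 libraries, and the labels do not say whether they came from separate mice, so every p-value measures the spread between these libraries only.

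Most cathepsins are cysteine proteases of the papain family (Ctsb, Ctsc, Ctsh, Ctsk, Ctsl, Ctss and Ctsz), whereas Ctsd is an aspartic and Ctsa a serine protease. They are made as inactive precursors, reach the lysosome through mannose 6-phosphate receptors or other sorting receptors, and are activated there by cleavage at acidic pH. In macrophages they degrade phagocytosed material, and Ctss also trims the invariant chain (Cd74) from MHC class II molecules. Many lysosomal genes carry the E-box CACGTG in their promoters, the core of the element bound by TFEB and its relatives Tfe3, Mitf and Tfec. AUF1 binds AU-rich elements, which are built around the pentamer AUUUA, in the 3′ UTRs of its target RNAs.

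The total counts, taking 1 transcript per gene, were between 2503125 and 2865857 in the control and between 2866952 and 3846215 in the M-Δx3,4 libraries. The p37 transcript of Hnrnpd (ENSMUST00000072750), the gene targeted, had 174, 102 and 68.2 normalized counts in the control and 51.8, 12.4 and 15.7 in the M-Δx3,4 libraries, and the groups did not overlap (log2 fold change -2.11, standard error 0.54, unadjusted p = 0.00144 and adjusted p = 0.984 in edgeR's quasi-likelihood test). In every alternative fit that tested it, p37 had an unadjusted p under 0.05. Its adjusted p was 0.00165 in edgeR with no filter on low counts and above 0.05 in the other fits. The p45 transcript (ENSMUST00000172361) had 329, 182 and 102 against 135, 122 and 157 normalized counts, and these overlapped (log2 fold change -0.57, standard error 0.41, unadjusted p = 0.183, adjusted p = 0.984). For p45 the unadjusted p was 0.0246 without the third control library and 0.906 without the first. The paper describes the p45 RNA as poorly expressed in macrophages. Counts here are not divided by length, and transcripts that overlap share reads, so the levels of p37 and p45 are not compared. Of the macrophage markers, 9 of 9 were detected and tested, with a summed level of 6348 to 6924 normalized counts in control and 5321 to 6947 in M-Δx3,4 BMDMs. Among them Lyz2, the lysozyme gene whose locus carries the Cre driver, was lower in the M-Δx3,4 group (log2 change -0.91, standard error 0.30, unadjusted p = 0.0089, adjusted p = 0.984). Libraries of 1 group were not alike. The first control library stood apart from the other two in several cathepsins, and its values are given beside each result they touch.

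The ends of the transcripts were located first, because only reads near a 3′ end were counted. The stretches below are 30 bases long, in the sense of the gene, with the polyadenylation signal (AATAAA or its variant ATTAAA) in capitals. They come from the reference transcripts placed on the mouse build GRCm38 (mm10), and they are shown because they mark the annotated 3′ ends of the transcripts counted. For Ctsa and Ctsl most counts came from a more proximal end, as described below, and Ctsk had almost no counts.
Ctsd, chr7:142375921-142375950, minus strand: agttgaaatacaAATAAAgttgttttgggc
Ctsb, chr14:63145889-63145918, plus strand: aaccacgctgcaATTAAAaacctaccaata
Ctss, chr3:95556367-95556396, plus strand: cccaaagtgcttAATAAAatctgtcatttc
Ctsa, chr2:164841003-164841032, plus strand: acttattcaaaagaATTAAAatggctctgc
Ctsh, chr9:90076055-90076084, plus strand: tgttgtgtattcAATAAAcacacagtaaat
Ctsl, chr13:64359339-64359368, minus strand: gtatgcaaaataAATAAAtctaatgtttgt
Ctsk, chr3:95509327-95509356, plus strand: ctttgtatttgaAATAAAgtatctcattta
Ctsc, internal end, chr7:88291350-88291379, plus strand: aaaaggagggttAATAAAtaattctgtaag
Ctsc, full length, chr7:88310838-88310867, plus strand: attcagacaggaAATAAAgaggagttttta

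The letters AATAAA stood in the last 50 bases of 6 of the 9 representative cathepsin transcripts and of 48.26% of the 18393 genes with a count and a sequence. Ctsa and Ctsb had the variant ATTAAA, and neither form was found in the last 50 bases of Ctsz. Ctsc had 2 counted ends, each with its own signal, which are described separately below.

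The pentamer of the AU-rich elements was searched on the sense strand as ATTTA. It occurred in the annotated 3′ UTR of 4 of the 9 representative transcripts, with 4 copies in Ctsl, 3 in the internal end of Ctsc, 2 in Ctsb and 2 in Ctsk. Ctsa, Ctsd, Ctsh, Ctss and Ctsz had none. Over 3′ UTRs of at least 100 bases, 70.44% of 12640 genes held the pentamer. In the last 300 bases of the representative transcripts, Ctsk alone of the 9 held it, against 35.66% of 17276 genes. For Ctsl this window lay at the distal end. The proximal end of Ctsl, which held most of its counts, had a pentamer 156 bases before its end. The full-length end of Ctsc had a pentamer 101 bases before its end. The following sites are shown with the pentamer in capitals because they are the ones in the ends that held most counts of Ctsl and in the 3′ UTRs of Ctsc, Ctsb and Ctsk nearest to their 3′ ends.
Ctsl, chr13:64363352-64363381, minus strand: cttacctcaaatATTTAattactttgttga
Ctsc, internal end, chr7:88290544-88290573, plus strand: acgactaaggagATTTAtcaaagaaagtat
Ctsc, full length, chr7:88310776-88310805, plus strand: taaaacaagaacATTTAaccttgtcaaaga
Ctsb, chr14:63144812-63144841, plus strand: ctacccctttatATTTAttcatgcagttta
Ctsk, chr3:95509333-95509362, plus strand: atttgaaataaagtatctcATTTAcaattt
A match of these letters is a description of the sequence and not a binding site of AUF1.

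For promoters, RefSeq windows on GRCm38.p6, from 250 bases before to 50 bases after the gene start, matched 7 of the 9 genes with 8 windows. Ctsb and Ctsh had no window. The E-box CACGTG, which reads the same on both strands, occurred in the windows of Ctsa, Ctsd and Ctsl, against 7.15% of all 32851 windows. The sites are shown with the E-box in capitals.
Ctsa, chr2:164833749-164833778, plus strand: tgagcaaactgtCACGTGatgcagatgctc
Ctsa, chr2:164833766-164833795, plus strand: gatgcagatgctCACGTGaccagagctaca
Ctsd, chr7:142388048-142388077, minus strand: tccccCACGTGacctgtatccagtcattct
Ctsd, chr7:142387908-142387937, minus strand: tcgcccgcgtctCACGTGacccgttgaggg
Ctsl, chr13:64370739-64370768, minus strand: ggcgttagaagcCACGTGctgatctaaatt
The values of these 3 genes are given with the others below. Ctsa and Ctsd were both lowest in the first control library, where Ctsl was highest, so the 3 did not share a pattern over the libraries.

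Levels of different genes were compared on the authors' TPM scale, in which counts are divided by the length of the counted region before the libraries are scaled to a common total. Ctsd, which opens up proteins by cutting within the chain, had the highest level, with 1163 ± 396 TPM in control and 1128 ± 296 in M-Δx3,4 BMDMs (mean ± SD, n = 3, as for all values below). Ctss followed at 358 ± 111 and 382 ± 24.6 TPM, Ctsz at 168 ± 24.8 and 148 ± 24.7, and Ctsb at 67.4 ± 3.91 and 58.4 ± 6.35. Over the 6 libraries these 4 genes did not overlap with their neighbours in this order, since the lowest Ctsd value (711 TPM) lay above the highest of Ctss (474), the lowest of Ctss (254) above the highest of Ctsz (197), and the lowest of Ctsz (124) above the highest of Ctsb (71.5). Below them Ctsa (18.5 to 48.6 TPM), Ctsc (7.36 to 55.5) and Ctsh (13 to 24.0) overlapped, so that their order was not resolved, and the highest Ctsc value also exceeded the lowest of Ctsb (51.3). Ctsl ran from 2.80 to 7.92 TPM, under every value of Ctsh. Because 1 molecule gives its reads at its 3′ end whatever its length, this scale lowers genes with a long counted region, such as Ctsl with 5010 bases, relative to those with a short one, such as Ctss with 464 bases. The order is therefore that of this scale only. In normalized counts, not divided by length, Ctsb (3519 ± 72.6 in control and 2982 ± 367 in M-Δx3,4 BMDMs) stood above Ctss (2236 ± 558 and 2351 ± 75.7) and Ctsz (1445 ± 269 and 1241 ± 256).

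**Figure D1:**
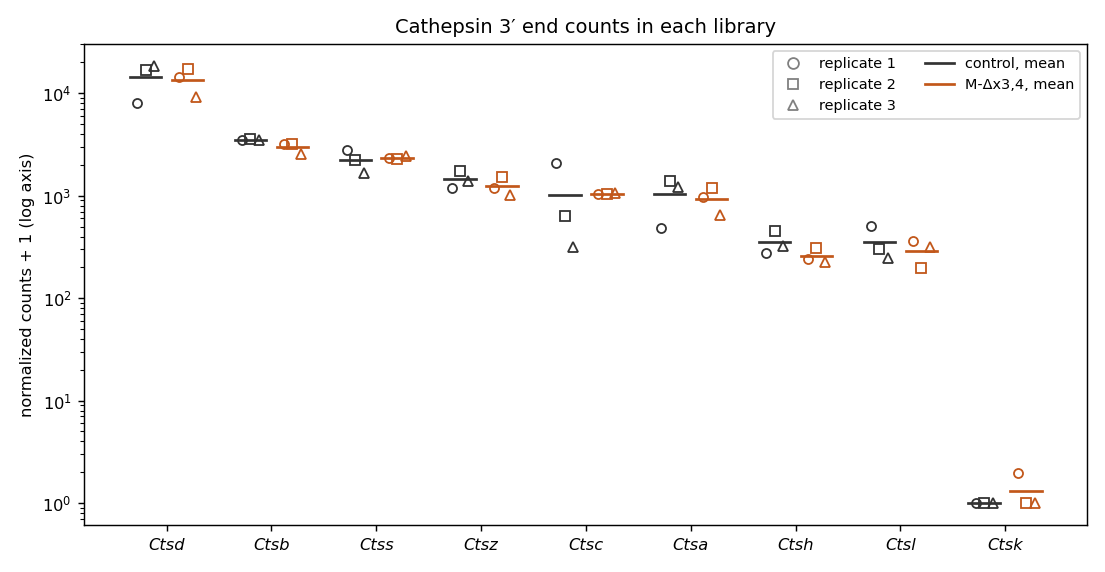
Normalized counts plus 1 (log axis) of the 9 cathepsins in each library, by genotype; symbols are replicates and lines are group means. Groups overlap for every gene but Ctsb, and Ctsk sits at 1 (0 counts) in 5 of 6 libraries.

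Together the 9 cathepsins took 0.664%, 0.949% and 0.953% of all counts in the control libraries. In the M-Δx3,4 libraries they took 0.861%, 0.926% and 0.61%, with 95% Wilson intervals within 0.0121 percentage points, which cover counting error only. The first control and the third M-Δx3,4 library were lowest. The groups overlapped, with means of 0.855% ± 0.165 and 0.799% ± 0.167 (exact permutation test, two-sided, p = 0.5, where 3 against 3 cannot go below 0.1). Ctsd alone supplied between 42.9% and 68.2% of the cathepsin counts, with 95% Wilson intervals within 0.754 percentage points, and its share was lowest in the first control library.

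No difference of a cathepsin between M-Δx3,4 and control BMDMs was detected by edgeR's quasi-likelihood test. Of the 9 genes, 8 passed the filter on low counts, and 0 of these 8 had an unadjusted p under 0.05, where 3.98% of the 11873 genes tested had one. A count of 0 among 8 genes lies near that share and does not set the cathepsins apart from other genes. The unadjusted p-values of the cathepsins ran from 0.208 (Ctsh) to 0.918 (Ctsc). With Benjamini-Hochberg adjustment over all 32475 transcripts, 0 cathepsins and 0.0% of the transcripts had an adjusted p under 0.05. DESeq2's Wald test and limma-voom also gave 0 cathepsins at either threshold. Over all 23 cathepsin transcripts tested, including those that share reads, the smallest unadjusted p was 0.202. The log2 fold change of M-Δx3,4 over control was negative in 6 and positive in 2 of the 8 genes, with a median of -0.18 beside -0.01 over all genes tested. The standard errors lay between 0.28 and 0.50 on the log2 scale, and the change was larger than its standard error in Ctsh alone (-0.43 against 0.33).

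**Figure D2:**
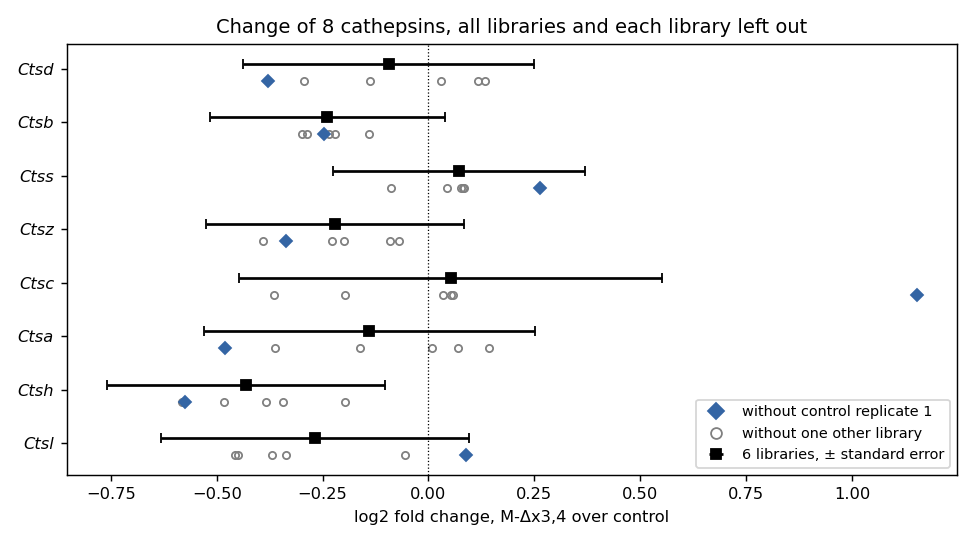
Log2 fold change of M-Δx3,4 over control for the 8 tested cathepsins (squares, ± standard error, 6 libraries) with the values after leaving out 1 library each (diamonds without control replicate 1, circles without one other library). Every square lies within 2 standard errors of 0, and only the Ctsc value without control replicate 1, at 1.15, lies far from its square.

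Ctsd (ENSMUST00000066401), the aspartic cathepsin, was counted over chromosome 7 from 142375668 to 142376570, a single 3′ UTR exon on the minus strand. It had 8124, 16860 and 18542 normalized counts in the control and 14391, 17092 and 9299 in the M-Δx3,4 libraries. Within each group 1 library, the first control and the third M-Δx3,4, had far fewer counts than the other two, and the groups overlapped. The log2 fold change was -0.09 (standard error 0.34, unadjusted p = 0.788, adjusted p = 0.995). A second Ctsd transcript (ENSMUST00000151120) held the same counts in every library and is no separate measurement.

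Ctsb (ENSMUST00000006235), a papain-like protease that also removes dipeptides from the end of its substrates, was counted on the plus strand of chromosome 14 from 63142330 to 63146172. Its counts were the steadiest of the family among the control libraries, at 3478, 3603 and 3476. The M-Δx3,4 libraries had 3168, 3219 and 2559. Their highest value was 1.26 times the lowest, against 1.04 for Ctsc and 1.06 for Ctss. Every M-Δx3,4 library lay below every control library, which was true of no other cathepsin tested and of 8.44% of all genes tested for either direction. The means were 3519 ± 72.6 and 2982 ± 367 normalized counts (p = 0.1 in the two-sided exact permutation test, the lowest value possible here). The log2 fold change of -0.24 was smaller than its standard error of 0.28 (unadjusted p = 0.404, adjusted p = 0.984).

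Ctss (ENSMUST00000015667), which cleaves the invariant chain, had 2787, 2250 and 1671 normalized counts in the control and 2312, 2302 and 2438 in the M-Δx3,4 libraries. It lies on the plus strand of chromosome 3, counted from 95556186 to 95556649. The M-Δx3,4 libraries were close together and fell inside the range of the controls (log2 fold change 0.07, standard error 0.30, unadjusted p = 0.811, adjusted p = 0.995). Ctsz (ENSMUST00000016400), a carboxypeptidase, had 1199, 1732 and 1404 normalized counts in the control and 1202, 1514 and 1006 in the M-Δx3,4 libraries, on the minus strand of chromosome 2 from 174427244 to 174427871. In Ctsz too the groups overlapped (log2 fold change -0.22, standard error 0.31, unadjusted p = 0.482, adjusted p = 0.984).

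Ctsa, or protective protein, is a carboxypeptidase that also stabilises the lysosomal enzymes Neu1 and Glb1 in a complex. Its representative transcript (ENSMUST00000103092, plus strand of chromosome 2, 164839235 to 164841281) had 478, 1395 and 1217 normalized counts in the control and 961, 1202 and 644 in the M-Δx3,4 libraries. As for Ctsd, the first control and the third M-Δx3,4 library were lowest (log2 fold change -0.14, standard error 0.39, unadjusted p = 0.726, adjusted p = 0.992). The long region of this transcript contains that of a shorter one (ENSMUST00000103093, ending at 164840268). Between 98.7% and 99.8% of the counts lay in the shorter region, with 95% Wilson intervals within 1.1 percentage points. Nearly all Ctsa reads thus came from the proximal end in both genotypes, and not from the distal end with the ATTAAA signal shown above.

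Ctsh, an aminopeptidase, had the lowest unadjusted p of the family. It had 277, 454 and 319 normalized counts in the control and 242, 311 and 227 in the M-Δx3,4 libraries, and the groups overlapped only through the first control library and the second M-Δx3,4 library (log2 fold change -0.43, standard error 0.33, unadjusted p = 0.208, adjusted p = 0.984). By the rule of the highest count it was represented by ENSMUST00000123320, a transcript annotated for nonsense-mediated decay and counted in 9 segments on the plus strand of chromosome 9 from 90062726 to 90076336. The full-length coding transcript (ENSMUST00000034915) shares its last exon and had 272, 448 and 316 against 240, 304 and 225 normalized counts. The counts of these 2 transcripts are nearly the same reads, so no statement on the decay form can be made from them.

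Ctsl, an endopeptidase, had 502, 299 and 246 normalized counts in the control and 357, 196 and 315 in the M-Δx3,4 libraries. The first control library was highest and the groups overlapped (log2 fold change -0.27, standard error 0.36, unadjusted p = 0.471, adjusted p = 0.984). The representative (ENSMUST00000222517) was counted on the minus strand of chromosome 13 from 64359088 to 64364097. Of its counts, between 92.0% and 98.7% lay in the proximal part from 64362965, which is the region of ENSMUST00000021933, with 95% Wilson intervals within 4.08 percentage points. The share inside the proximal part was 97.2% ± 1.49 in control and 94.3% ± 2.48 in M-Δx3,4 BMDMs (exact permutation test, two-sided, p = 0.2).

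Ctsk, the collagen-degrading cathepsin of osteoclasts, was at the limit of detection. It had 0 counts in 5 of 6 libraries and 1 count in the first M-Δx3,4 library, and it was not tested. A count of 0 allows up to 3 counts per library, which corresponds to between 0.78 and 1.2 counts in 1000000. The neighbour of Ctsk on chromosome 3, Ctss, had between 1671 and 2787 normalized counts in the same libraries. Of the genes of the osteoclast programme, 5 of 9 were tested and 0 had an unadjusted p under 0.05. Acp5, the tartrate-resistant acid phosphatase, had the highest level among them (log2 fold change -0.36, standard error 0.31, unadjusted p = 0.253, adjusted p = 0.984), while Calcr, Oscar and Dcstamp were at 0 in every library.

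Ctsc, the dipeptidyl peptidase that activates the serine proteases of granules, was the cathepsin with the largest spread. Its highest count fell on a transcript with an internal end (ENSMUST00000131108), which shares the first 2 exons with the full-length form, has 2 exons of its own and codes for 137 instead of 462 codons. The internal end was counted on chromosome 7 from 88288661 to 88291646 and the full-length end (ENSMUST00000032779) from 88309903 to 88311137, both on the plus strand, so their reads are separate. The internal end had 2097, 632 and 313 normalized counts in the control and 1037, 1042 and 1074 in the M-Δx3,4 libraries. The controls spanned a range of 6.71-fold on both sides of the M-Δx3,4 libraries, which differed among themselves by 1.04-fold. The log2 fold change was 0.05 (standard error 0.50, unadjusted p = 0.918, adjusted p = 0.998).

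The full-length end of Ctsc had 1162, 655 and 630 normalized counts in the control and 954, 709 and 912 in the M-Δx3,4 libraries. Again the first control library was highest, but the range was smaller than at the internal end (log2 fold change 0.07, standard error 0.33, unadjusted p = 0.825, adjusted p = 0.996). Without the first control library, the log2 fold change of the internal end was 1.15 (standard error 0.34, unadjusted p = 0.00297, adjusted p = 0.171) and that of the full-length end 0.42 (standard error 0.30, unadjusted p = 0.184, adjusted p = 0.531). In that comparison of 2 with 3 libraries, an unadjusted p under 0.05 with a higher level in M-Δx3,4 was given by 1 of the 8 cathepsins and by 9.61% of all genes tested.

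The internal end held 64.3% (95% Wilson interval 62.6 to 66.1), 49.1% (46.4 to 51.8) and 33.2% (30.1 to 36.4) of the Ctsc counts in the control libraries. In the M-Δx3,4 libraries it held 52.1% (49.9 to 54.2), 59.5% (57.3 to 61.7) and 54.1% (52.2 to 56.0). The control libraries thus differed from each other by more than counting error, and the M-Δx3,4 libraries lay within their range. The means were 48.9% ± 15.6 and 55.2% ± 3.84 (exact permutation test, two-sided, p = 0.6). Of 8 granule protein genes, most of them for serine proteases that Ctsc activates, 0 were tested, since no library had more than a single count of any of them.

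**Figure D3:**
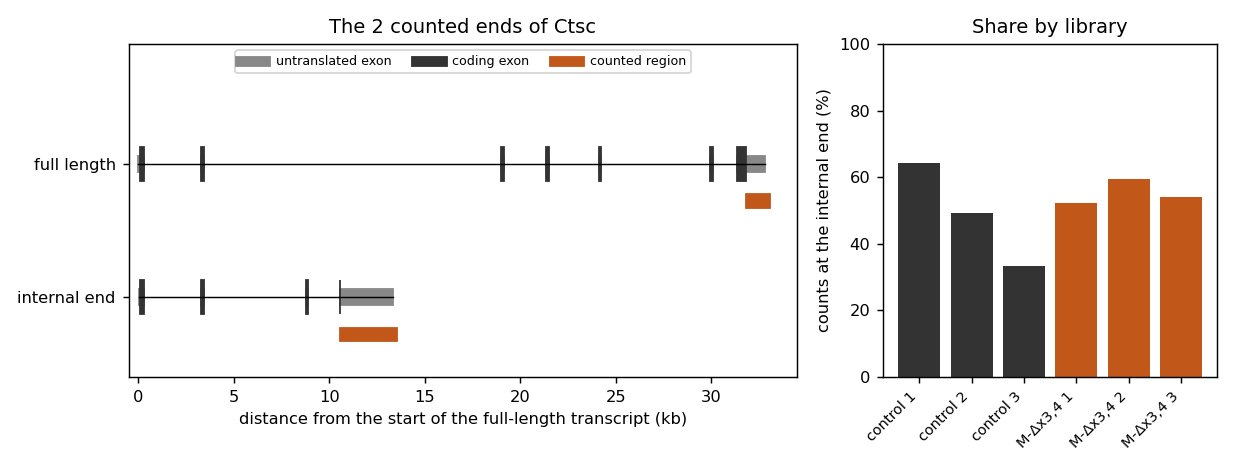
Left, exons and counted regions of the full-length and internal-end transcripts of Ctsc, by distance in kb from the start of the full-length transcript; right, percent of the Ctsc counts at the internal end in each library. The share runs from 33.2% to 64.3% in control and from 52.1% to 59.5% in M-Δx3,4 libraries.

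The cathepsins did not vary together over the libraries. In the first control library Ctsd and Ctsa were the lowest of all 6 libraries, and Ctsc, Ctsl and Ctss the highest. The ratio of the highest to the lowest control library was 6.71 for Ctsc, 2.92 for Ctsa, 2.28 for Ctsd, 2.05 for Ctsl, 1.67 for Ctss, 1.64 for Ctsh, 1.44 for Ctsz and 1.04 for Ctsb, beside a median of 1.88 over 4667 genes with a mean of at least 50 normalized counts. Among the M-Δx3,4 libraries the median of the same genes was 1.51, and Ctsa (1.87), Ctsd (1.84) and Ctsl (1.82) were above it.

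The ratio of the first over the third control library tended to fall as the G and C content of the 3′ ends rose. The last 300 bases of the transcript had 34.3% G and C in Ctss, 35.3% in Ctsc and 37% in Ctsl, and their log2 ratios of the first over the third control library were 0.74, 2.74 and 1.03. The last 300 bases had 45.3% in Ctsa (53.3% at its proximal end), 46.3% in Ctsh, 48% in Ctsb, 54.7% in Ctsz and 56.7% in Ctsd. Their log2 ratios were -1.35, -0.21, 0.00, -0.23 and -1.19. Over the 8 genes Spearman's rho was -0.67, and over 4660 genes with a mean of at least 50 normalized counts it was -0.59. Both are descriptions of 2 libraries across genes, which are not replicates. The median log2 ratio over all these genes was 0.80 where G and C made up less than 40%, 0.04 between 40% and 50% and -0.80 above. The part of base composition in the values of the cathepsins was not tested. After a trend of G and C content was removed in each library, an alternative chosen after the data were seen, 0 of 8 cathepsins had an unadjusted p under 0.05 and the log2 fold change was 0.16 for Ctsd, -0.14 for Ctss and 0.05 for Ctsc.

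**Figure D4:**
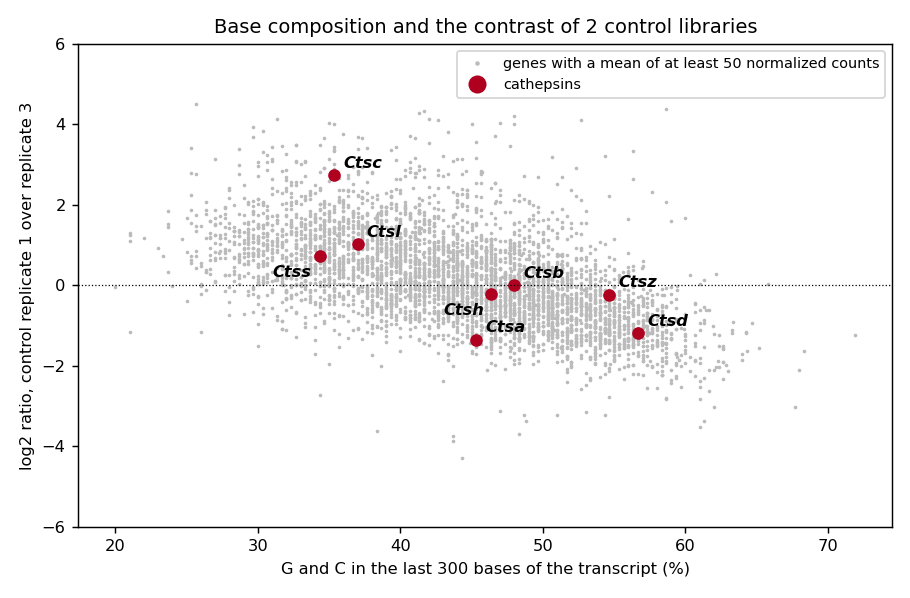
Percent of G and C in the last 300 bases of the transcript against the log2 ratio of control replicate 1 over control replicate 3, for genes with a mean of at least 50 normalized counts (grey) and the 8 cathepsins counted (red). Ctss, Ctsc and Ctsl lie at low G and C content with ratios above 0, and Ctsd lies at high content with a ratio of -1.19.

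The genes around the cathepsins are given by list, again with the most abundant transcript of each gene, beside the 3.98% of all genes with an unadjusted p under 0.05. None of the genes named had an adjusted p under 0.05 in the edgeR fit. Of the 14 other cathepsin genes, 2 (Ctso and Ctsf) were tested and 0 had an unadjusted p under 0.05. Ctso, the more abundant, had between 18.2 and 51.2 normalized counts, and 9 of the 14 were at 0 in every library.

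Of the cathepsin inhibitors, 8 of 20 were tested and 1 had an unadjusted p under 0.05, with a median log2 fold change of -0.11 over the 8. Cystatin C (Cst3), the secreted inhibitor of papain-like cathepsins, had the highest level, with 1699, 3031 and 4380 normalized counts in the control and 2352, 2861 and 1800 in the M-Δx3,4 libraries. Like Ctsd it was lowest in the first control library (log2 fold change -0.38, standard error 0.35, unadjusted p = 0.303, adjusted p = 0.984). Without that library the log2 fold change of Cst3 was -0.66 (standard error 0.31, unadjusted p = 0.0422, adjusted p = 0.323), in the comparison where 16.0% of all genes had an unadjusted p under 0.05. Cystatin B (Cstb), its cytosolic counterpart, had a log2 fold change of -0.34 (standard error 0.30, unadjusted p = 0.272, adjusted p = 0.984). Serpinb6a, an intracellular inhibitor of serine proteases, had 257, 352 and 269 against 464, 627 and 429 normalized counts, and the groups did not overlap (log2 fold change 0.79, standard error 0.32, unadjusted p = 0.0253, adjusted p = 0.984). Without the second M-Δx3,4 library its unadjusted p was 0.126.

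Of the partners in activation and in complexes, 8 of 8 were tested and 1 had an unadjusted p under 0.05, with a median log2 fold change of -0.19. Prosaposin (Psap), the precursor of the lipid-binding saposins and a binding partner of Ctsd, had 25967, 25730 and 44639 normalized counts in the control and 18938, 17909 and 21392 in the M-Δx3,4 libraries (log2 fold change -0.73, standard error 0.29, unadjusted p = 0.0248, adjusted p = 0.984). The value of the third control library was far above the other two, and the groups did not overlap. Over the 16 alternatives its log2 fold change ran from -0.86 to -0.40 and its unadjusted p reached 0.111. Legumain (Lgmn), which cleaves precursors of several cathepsins, had 1826, 1694 and 2028 against 1698, 1492 and 1540 normalized counts (log2 fold change -0.23, standard error 0.28, unadjusted p = 0.429, adjusted p = 0.984). Neu1 and Glb1, the partners of Ctsa, had log2 fold changes of -0.19 each.

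Of the genes that sort proteins to the lysosome, 16 of 16 were tested. The adaptor Gga2 alone had an unadjusted p under 0.05, with 63.8, 84.1 and 65.9 against 36.4, 38.1 and 33.7 normalized counts (log2 fold change -0.98, standard error 0.38, unadjusted p = 0.0195, adjusted p = 0.984). Its unadjusted p was at most 0.081 over the alternatives. The lysosomal transporter Mfsd1, the most abundant of this list, had a log2 fold change of 0.07 (standard error 0.30). Of the lysosomal membrane genes, 14 of 14 were tested and the tetraspanin Cd63 alone had an unadjusted p under 0.05 (log2 fold change -0.83, standard error 0.31, unadjusted p = 0.0189, adjusted p = 0.984). The proton pump subunit Atp6v1b2, the most abundant, had a log2 fold change of -0.45 (standard error 0.27, unadjusted p = 0.119). Without the third M-Δx3,4 library 0 genes of either list had an unadjusted p under 0.05, beside 2.43% of all genes tested in that comparison. Without the first control library 5 of the sorting genes (3 higher and 2 lower in M-Δx3,4) and 3 of the membrane genes (2 higher and 1 lower) had one, and so had 16.0% of all genes tested there. Of the MiT/TFE factors and their regulators, 9 of 10 were tested and 0 had an unadjusted p under 0.05. The gene not tested was Tfeb itself, with no more than 1.001 normalized counts in any library. Lamtor1, the most abundant of this list, had a log2 fold change of -0.58 (standard error 0.42, unadjusted p = 0.182).

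The genes of MHC class II peptide loading, where Ctss acts, were the list with most differences. Of 8 genes 7 were tested, 3 had an unadjusted p under 0.05, all lower in M-Δx3,4, and the median log2 fold change was -1.06. The invariant chain Cd74 had 18.2, 50.1 and 28.4 normalized counts in the control and 11.5, 16.2 and 5.24 in the M-Δx3,4 libraries, without overlap (log2 fold change -1.57, standard error 0.55, unadjusted p = 0.0116, adjusted p = 0.984). H2-Aa, a chain of the class II molecule, had 140, 234 and 239 against 55.6, 44.7 and 45.7 normalized counts (log2 fold change -2.07, standard error 0.37, unadjusted p = 5.07e-05, adjusted p = 0.824). H2-Eb1, another chain, had a log2 fold change of -1.06 (standard error 0.48, unadjusted p = 0.0443, adjusted p = 0.984). Ctss itself did not share this difference, with its log2 fold change of 0.07. H2-Aa kept an unadjusted p under 0.05 in 16 of 16 alternatives and Cd74 in 13 of 15. The adjusted p of H2-Aa was 0.00057 in DESeq2, 0.00031 in edgeR with no filter and 0.0175 in edgeR without control replicate 1. In every other alternative it was above 0.05, with 0.611 in limma-voom. H2-Eb1 kept an unadjusted p under 0.05 in 6 of 16 alternatives, but not in DESeq2 (0.0649), limma-voom (0.0648) or 5 of the 6 comparisons that left out a library. Without the third M-Δx3,4 library H2-Aa alone of the 7 had an unadjusted p under 0.05.

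**Figure D5:**
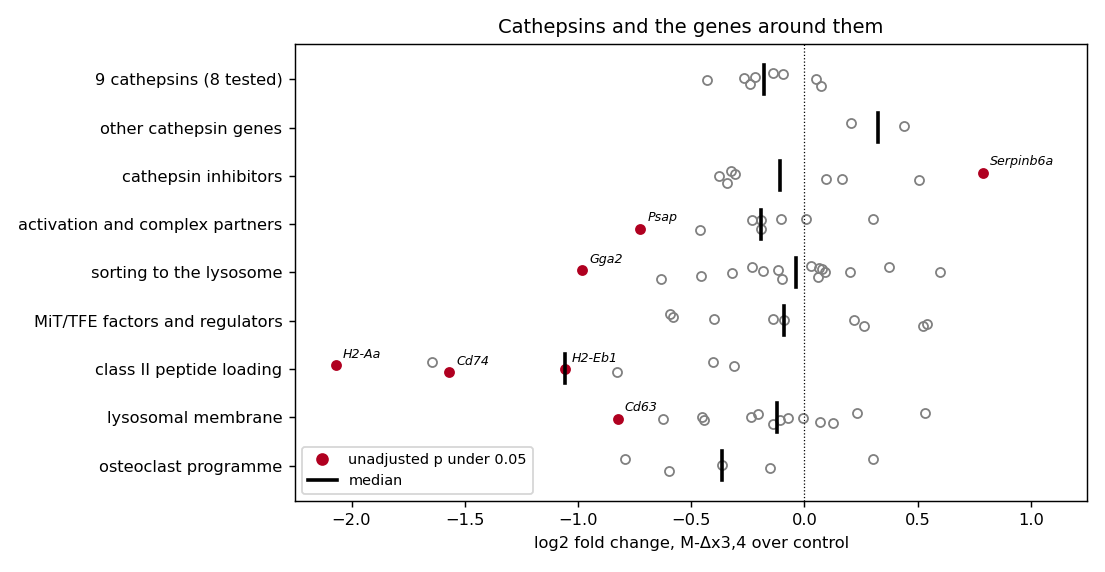
Log2 fold change of M-Δx3,4 over control for the tested cathepsins and for the tested genes of each list around them; filled points have an unadjusted edgeR p under 0.05 and bars are medians. The cathepsins lie between -0.43 and 0.07 and the class II genes have a median of -1.06.

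Markers of other cell types were counted beside these values. Of the B cell markers, 7 of 7 had a count and 4 were tested, with a summed level of 295 to 351 normalized counts in control and 140 to 162 in M-Δx3,4 BMDMs. Most of this sum was Igkc, an immunoglobulin light chain, with 219, 224 and 247 against 81.5, 58.0 and 93.6 normalized counts (log2 fold change -1.56, standard error 0.34, unadjusted p = 0.0004, adjusted p = 0.984). Igkc kept an unadjusted p under 0.05 in 16 of 16 alternatives. Its adjusted p was 0.0468 in DESeq2 and 0.0308 in edgeR with no filter, and above 0.05 in every other alternative. The defining B cell markers Ms4a1 and Pax5 had no more than 3.003 normalized counts in any library, and Ms4a1 was at 0 in every M-Δx3,4 library. The summed dendritic cell markers, 2 of 6 tested, ran from 4.56 to 20.5 and from 9.58 to 13.3 normalized counts, with Cd209a at 0 throughout. The neutrophil markers, 4 of 8 tested, ran from 370 to 674 and from 463 to 695. Nearly all of this came from S100a9 (79.1 to 361 over the 6 libraries), S100a8 (85.1 to 206), Ngp (86.1 to 172) and Camp (62.1 to 131). Elane was at 0 throughout and Ly6g at no more than 1.14. The T and NK cell markers ran from 5.68 to 37.6 and from 10.5 to 23.8, mostly Cd3d, and the 5 mast cell and basophil markers were at 0 in every library. The part of these cells in the class II values was not tested, and fewer cells of a type cannot be told apart from less RNA per cell. Igkc was the only marker of these cell types with an unadjusted p under 0.05.

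The stroma, erythroid, osteoclast and proliferation markers were counted in the same way. The stroma markers, 5 of 5 tested, summed to 2.27 to 47.8 normalized counts in control and 1.9 to 32.6 in M-Δx3,4 BMDMs. One of them, Col3a1, had an unadjusted p under 0.05, with 13.7, 6.01 and 0 against 0 in every M-Δx3,4 library, and it lost this without the first control library. The erythroid markers, 1 of 4 tested, stayed at or under 29.6 normalized counts. The osteoclast markers, 1 of 5 tested, summed to 331 to 450 normalized counts in control and 281 to 336 in M-Δx3,4 BMDMs, nearly wholly from Acp5. The proliferation markers, 5 of 5 tested, summed to 121 to 158 and 90.1 to 135 normalized counts. Among them Cdk1, the kinase of mitotic entry, had an unadjusted p of 0.0499, and it kept an unadjusted p under 0.05 in 5 of 15 alternatives, but not in DESeq2 (0.0854) or limma-voom (0.0761).

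The genes most like the mean of the cathepsins over the 6 libraries were found by Pearson's r with the mean centred log2 normalized count of the 9 cathepsins. In this mean opposed members cancel, such as Ctsd and Ctsc in the first control library, so r describes the mean and no single cathepsin. Of 4659 other genes with a mean of at least 50 normalized counts, the highest r belonged to Phpt1 (0.98), Acad8 (0.96), Fcgr1 (0.96), Fcgr3 (0.96) and Tmem106a (0.95). The lowest belonged to G3bp2 (-0.95), Slc6a6 (-0.95) and Ybx1-ps2 (-0.93). These are descriptions over 6 libraries of 2 genotypes, chosen as the extremes of many genes. The mean centred value was 0.03, 0.16 and -0.14 in the control and 0.11, 0.05 and -0.21 in the M-Δx3,4 libraries, and the single Ctsk count adds to the first M-Δx3,4 value, which was 0.02 without Ctsk. The order of r also rested on that count, since without Ctsk r was 0.98 for Fcgr1, 0.95 for Phpt1 and -0.80 for Ybx1-ps2.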

How the data were processed

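RNA was sequenced from 3′ ends (QuantSeq, Ion Proton). Per the methods and the submitters' processing notes, the authors mapped reads to mm10 with TopHat2 2.1.1 and Bowtie2, and counted them on extended 3′ UTR regions of Ensembl transcripts with metaseqR2. The deposited counts are raw reads per region. The deposited TPM values are the authors' and were used only to order genes. Fold changes and p-values of the authors' own comparison were not used, nor were 18 further per-library columns of that table.

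Regions were summed per transcript, which gave 142567 transcripts, and libraries were scaled by DESeq2's median of ratios. Transcripts above the median normalized count (4.79) in at least 1 library were kept (32475). Groups were compared with edgeR 4.0.16 (quasi-likelihood, Benjamini-Hochberg over all transcripts tested). This single test replaced the combination of 7 methods of the study. Standard errors of the edgeR fits were back-calculated, as the absolute log2 fold change divided by the square root of the test's F statistic. They therefore carry no information beyond that test. Transcripts that overlap share reads. Sequences and G and C content came from GENCODE, in which 99.1% of the transcripts were found, and promoters from RefSeq. DESeq2 1.42.0 and limma 3.58.1 were alternatives.

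The members and lists were chosen with earlier results of these data known. The named genes were the 9 cathepsins, Cd74, Lgmn, Cst3 and Cstb, in each list the most abundant gene and those with an unadjusted p under 0.05, and the 5 highest and 3 lowest by Pearson's r. With 2503125 to 3846215 counts per library (1 transcript per gene), a gene at 0 can still have up to 1.2 counts in 1000000. Intervals cover counting error only.

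One marker gene is not reported here.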

Additional observations from a re-analysis of the deposited data

How the results depend on the processing

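Under the 16 alternatives, 15 gave 0 cathepsins with an unadjusted p under 0.05. The exception left out control replicate 1 and gave 1 (Ctsc), so that this count ran from 0 to 1 over the fits without 1 library. No alternative gave a cathepsin with an adjusted p under 0.05. Of the 128 log2 fold changes recomputed for the 8 genes, 115 kept their direction and their side of the threshold, 12 changed sign and 1 (Ctsc without control replicate 1, 1.15) passed it.

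Leaving out each library in turn moved the log2 fold change from -0.48 to 0.14 for Ctsa, from -0.36 to 1.15 for Ctsc, from -0.38 to 0.13 for Ctsd, from -0.46 to 0.0893 for Ctsl and from -0.0881 to 0.26 for Ctss. These 5 genes changed sign, and Ctsb, Ctsh and Ctsz did not. With the trend of G and C content removed, the sign changed for Ctsd (0.16) and Ctss (-0.14). The causes were not tested. The replicate numbers did not pair the libraries throughout, as same-numbered libraries deviated with correlations of -0.21, 0.54 and -0.31. Some libraries of different number deviated together, with 0.54 for control replicate 1 and M-Δx3,4 replicate 3 and 0.28 for control replicate 3 and M-Δx3,4 replicate 1. With the replicate block Ctsc had a log2 fold change of 0.51 (unadjusted p = 0.286), and 0 cathepsins had an unadjusted p under 0.05. In limma-voom Ctsc had 0.50. Over all transcripts, 1340 had an unadjusted p under 0.05 in the edgeR fit, 2148 with no filter and 4572 without control replicate 1. With adjustment these counts were 0, 118 and 55, and DESeq2 gave 4. The summed level of the 9 cathepsins under TMM factors or library totals alone moved by less than the spread between replicates.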
